A study of Rattus norvegicus with 9 samples.

Results

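The response common to phenylephrine and IGF1, 2 stimuli of hypertrophic growth, was examined in neonatal rat ventricular myocytes. The mean of the phenylephrine and IGF1 group levels, with equal weight and on the log2 scale, was set against vehicle for every gene. A gene was taken as common to both stimuli when this average difference had an adjusted p under 0.05 in the quasi-likelihood test of edgeR, and when all 6 treated samples lay on one side of all 3 vehicle samples. Only the average was tested for this choice, so a common gene need not have passed with each stimulus alone. In all, 3662 genes met both conditions, of 11873 genes tested and 17327 rows in the table (30.8% of tested genes). The same columns choose and describe these genes, so their differences from vehicle are descriptions. Phenylephrine against IGF1 is a separate contrast, fitted over all tested genes, but needing all 6 treated samples on one side of vehicle limits how far the stimuli can diverge, so its values among the common genes are conditioned by the choice. The changes with phenylephrine and with IGF1 share the vehicle samples and are given side by side.

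Primary cardiomyocytes from newborn rat ventricles were kept for 48 hours with vehicle, with 50 µM phenylephrine, an agonist of alpha1-adrenergic receptors, or with 10 nM IGF1 (insulin-like growth factor 1). Each group had 3 samples, and no sample received both stimuli. Total RNA was sequenced on an Illumina NovaSeq instrument after library preparation with a NuGEN Ovation kit. The labels give no rat strain, genetic change or exact age, and leave unsaid whether samples of 1 group were separate cultures or litters. The p-values therefore cover only the spread among the samples deposited, part or all of which may be technical.

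Alpha1-adrenergic receptors couple to Gq proteins, which activate phospholipase C, protein kinase C and calcium signals. The IGF1 receptor is a tyrosine kinase that acts mainly through PI3K, AKT and mTOR, and AKT keeps FoxO transcription factors, which drive genes of protein breakdown and autophagy, out of the nucleus. Both routes enlarge cultured heart muscle cells, and growing cells draw on the sterol regulatory element-binding proteins (SREBP), which switch on the genes of cholesterol and fatty acid synthesis.

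Total counts ran from 31274396 to 48505265 per sample, so that 1 CPM, the level unit of edgeR scaled by library size and normalization factor, rested on 29.1 to 51.6 reads. The library of IGF1 replicate 1 stood apart from its group. Among genes above 5 CPM, it differed by over 1.5-fold from replicates 2 and 3 at 252 and 220 genes, against 3 to 31 genes for every other pair of samples within a group. Of the 3662 common genes, 105 differed by over 1.5-fold between it and the mean of the other two, 70 of them among the rises and 35 among the falls. Without it, 3655 of the 3662 genes were still common, and for named genes that it moved strongly the change with IGF1 is given with and without it.

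Averaged over both stimuli, 3208 genes were higher than in vehicle (27.0% of those tested) and 3088 were lower (26.0%). Of these, 1813 genes were higher in every treated sample than in every vehicle sample (15.3% of tested genes), and 1849 were lower in every one (15.6%). Most of these changes were small. The median log2 difference was 0.35 among the common rises and -0.40 among the common falls, against -0.01 over all genes tested, and 1455 of the rises and 1294 of the falls were under 1.5-fold on average. A change of at least 2-fold with each stimulus was reached by 49 common rises and 98 common falls, or by 33 and 93 without IGF1 replicate 1. The division into rises and falls depended on the scaling. With scaling by library size only, the median over all genes moved to -0.15 and 25.8% of the calls were rises, against 51.0%. All 1849 falls and 903 of the 1813 rises stayed common under that scaling, and no gene changed direction, while 176 of the 194 rises of at least 1.5-fold with each stimulus and all 328 such falls stayed common.

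Ranked by the smaller of their changes with the 2 stimuli, the largest common rises included genes of muscle structure (Acta1, Xirp2, Myl4, Fhl1), of the sarcoplasmic reticulum and triad (Casq1, Sypl2), of sterol and fatty acid synthesis (Idi1, Scd1, Scd2) and of metabolite transport and turnover (Slc16a3, Mthfd2, Bdh1), with Mllt11. Acta1, the skeletal muscle alpha-actin that neonatal and stressed heart muscle also makes, stood at 334, 368 and 356 CPM in the vehicle samples, 3016, 3323 and 3272 CPM with phenylephrine and 6019, 1268 and 1317 CPM with IGF1. Every treated sample was at least several times above vehicle, and IGF1 replicate 1 was the highest of all 9. The average rise was 8.60-fold (log2 3.10 ± 0.64 SE, adjusted p = 0.00679), and the log2 change with IGF1 was 3.02, or 1.87 without replicate 1. Sypl2, a synaptophysin-like protein of skeletal muscle triads, stood at 2.87, 3.30 and 3.31 CPM with vehicle, 14.97, 17.4 and 20.9 CPM with phenylephrine and 52.7, 8.22 and 8.70 CPM with IGF1, the first IGF1 sample again being the highest.

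Several of these rises rested largely on IGF1 replicate 1. Fhl1, a LIM protein of the sarcomere, had levels of 565, 589 and 598 CPM with vehicle and 5226, 5315 and 5321 CPM with phenylephrine, but 3239, 603 and 609 CPM with IGF1. IGF1 replicates 2 and 3 thus lay only just above the highest vehicle sample, and the log2 change with IGF1 was 1.35 with replicate 1 and 0.06 without it. The same quantity was 2.21 and 0.43 for Xirp2, an actin-binding protein of the intercalated disc. For Mllt11 it was 1.37 and 0.28. For Casq1, the calsequestrin of skeletal muscle, it was 2.68 and 1.28, and for Sypl2 2.84 and 1.42. The calls of Fhl1, Xirp2, Mllt11, Casq1 and Sypl2 were each lost when any single vehicle or phenylephrine sample was left out, with adjusted p from 0.0514 to 0.125. They held without IGF1 replicate 1, when 9 of the 14 largest rises were the same genes and Stard4, Dok5, Eno3 and Acat2 were among those that took the places of the others. With all samples, the edgeR test of IGF1 alone against vehicle was not passed by Fhl1, Xirp2 and Mllt11 (adjusted p = 0.158, 0.0869 and 0.124). That of phenylephrine alone was not passed by Casq1 (adjusted p = 0.109).

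**Figure D1:**
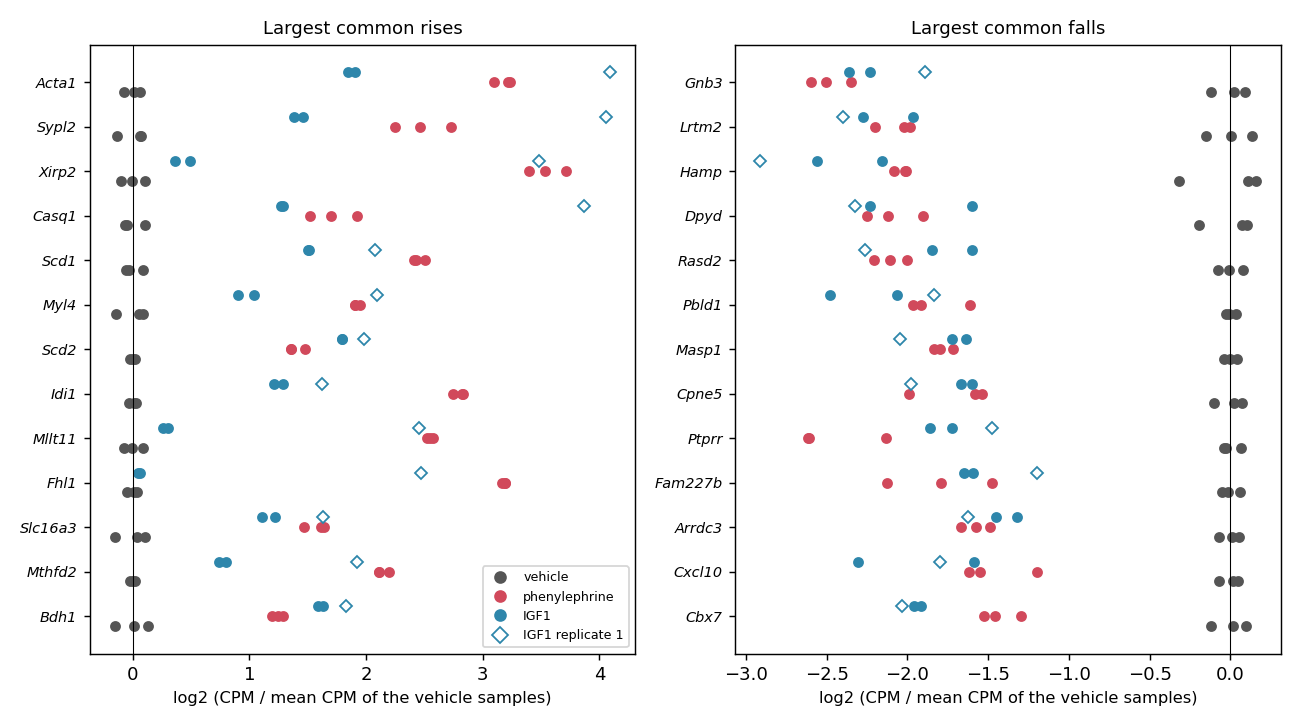
Level of 13 of the 14 largest common rises (left) and 13 of the 14 largest common falls (right) in each of the 9 samples, as log2 of the CPM over the mean of the vehicle samples; grey points are vehicle, red phenylephrine and blue IGF1, with IGF1 replicate 1 as an open diamond. On the left, IGF1 replicates 2 and 3 lie close to vehicle for Fhl1, Mllt11 and Xirp2, whereas on the right all treated samples of the 13 genes lie below -1.

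Genes of cholesterol synthesis and uptake had the highest share of common rises among the 27 gene lists examined. The lists were chosen with earlier results of these data known, so this rank is a description. Of 25 genes tested, 24 were called higher and 23 were higher in every treated sample, with none lower, and the median log2 change was 0.98 against -0.01 over all genes. They covered the pathway from its first enzymes (such as Acat2 and Hmgcs1) through the mevalonate and isoprenoid steps (Mvk, Pmvk, Mvd, Idi1, Fdps) to squalene and sterol conversion (among others Sqle, Lss, Cyp51, Tm7sf2, Msmo1, Nsdhl, Hsd17b7, Ebp, Sc5d, Dhcr7). They also held Stard4, a sterol carrier, Insig1, which retains SREBP in the endoplasmic reticulum, and Srebf2, which encodes the SREBP of sterol synthesis. Scaling by library size only left 22 of them common.

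Idi1, which isomerizes isopentenyl diphosphate, stood at 61.3, 62.9 and 63.9 CPM with vehicle, 444, 447 and 421 CPM with phenylephrine and 193, 153 and 145 CPM with IGF1. The IGF1 samples lay between vehicle and phenylephrine with no overlap. Idi1 rose 4.26-fold on average (log2 2.09 ± 0.09 SE, adjusted p = 3.15e-08). Srebf2 stood at 137, 137 and 134 CPM with vehicle, 296, 312 and 312 CPM with phenylephrine and 213, 196 and 202 CPM with IGF1. Of the 23 common genes, 22 differed between the stimuli and each of these 22 was higher with phenylephrine. Fdft1, the squalene synthase, was the 1 gene called but not common: it had 410.5, 400.2 and 396 CPM with phenylephrine, but 221, 179.9 and 179.7 CPM with IGF1 against 179, 182 and 186 CPM with vehicle.

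The promoters of these genes were read to show a sequence that many members of the group hold. Among 17 of the 23 with an entry in RefSeq (build GRCr8, from 250 bases before to 50 after the gene start), 14 held CCAAT on either strand (82.4%), the letters bound by the nuclear factor Y complex, against 39.6% of all 27457 genes in that table. CCAAT was not particular to this group: 9 of 12 promoters of the common rises among ATF4 targets and tRNA synthetases held it (75%). It was in 6 of 18 for the common falls of the FoxO list and 6 of 17 for the common rises of the hypertrophy and sarcomere lists. The sterol site searched, TCACNCCA, was found in 2 of the 17 sterol genes, against 4.29% of all genes. For 4 genes of the mevalonate and isoprenoid steps the stretch before the gene start that holds the motif is given, 5′ to 3′ on the strand of the gene, with CCAAT or its complement ATTGG in capitals. Idi1 is chr17:66547530-66547615, minus strand; Hmgcs1 chr2:53382091-53382200, plus strand; Fdps chr2:176804872-176804971, minus strand; and Mvd chr19:67414980-67415034, minus strand. The shares for all genes are over the whole RefSeq table, which also holds genes that were not tested here. A match describes the letters only.
Idi1: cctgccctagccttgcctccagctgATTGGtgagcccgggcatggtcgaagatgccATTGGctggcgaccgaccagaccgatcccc
Hmgcs1: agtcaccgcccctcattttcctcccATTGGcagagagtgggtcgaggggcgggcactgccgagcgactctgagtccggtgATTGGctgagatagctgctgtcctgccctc
Fdps: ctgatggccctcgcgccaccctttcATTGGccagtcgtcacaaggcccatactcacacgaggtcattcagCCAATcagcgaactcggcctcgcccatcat
Mvd: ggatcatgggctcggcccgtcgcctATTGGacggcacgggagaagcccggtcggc
Idi1, Hmgcs1 and Fdps each held the motif more than once in this stretch, and Mvd held it once.

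Genes of fatty acid synthesis and desaturation were mostly higher as well. Of 16 genes tested, 13 were called higher and 1 lower, and 11 and 1 were common, with a median log2 change of 0.76. Scd2, a stearoyl-CoA desaturase, stood at 471, 464 and 456 CPM with vehicle, 1184, 1187 and 1289 CPM with phenylephrine and 1835, 1610.5 and 1611 CPM with IGF1. All IGF1 samples lay above all phenylephrine samples, the reverse of the order in Idi1. Its average rise was 3.09-fold (log2 1.63 ± 0.05 SE, adjusted p = 2.04e-11). Scd1 stood at 18.03, 17.7 and 19.6 CPM, 99.5, 98.04 and 105 CPM and 78.04, 52.2 and 52.5 CPM with vehicle, phenylephrine and IGF1. Reads of these near-identical desaturases can be shared between them, so their separate values are uncertain. Fasn, the fatty acid synthase, stood at 229, 239 and 228 CPM with vehicle, 618, 648 and 647 CPM with phenylephrine and 412, 397 and 406 CPM with IGF1. Srebf1, which encodes the SREBP of fatty acid synthesis, stood at 54.1, 54.4 and 51.9 CPM, 79.3, 84.5 and 85.7 CPM and 106, 99.5 and 102 CPM. It was highest with IGF1, whereas Srebf2 was highest with phenylephrine. The other common rises were Acly, Acss2, Acaca, Me1, Elovl5, Fads1 and Fads2. The 1 common fall was Gpam, which starts glycerolipid synthesis, at 173, 189 and 178 CPM with vehicle, 74.5, 76.8 and 72.4 CPM with phenylephrine and 84.8, 94.4 and 96.7 CPM with IGF1 (log2 -1.12 ± 0.04 SE). Of the 9 common rises with a promoter entry, 6 held CCAAT.

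**Figure D2:**
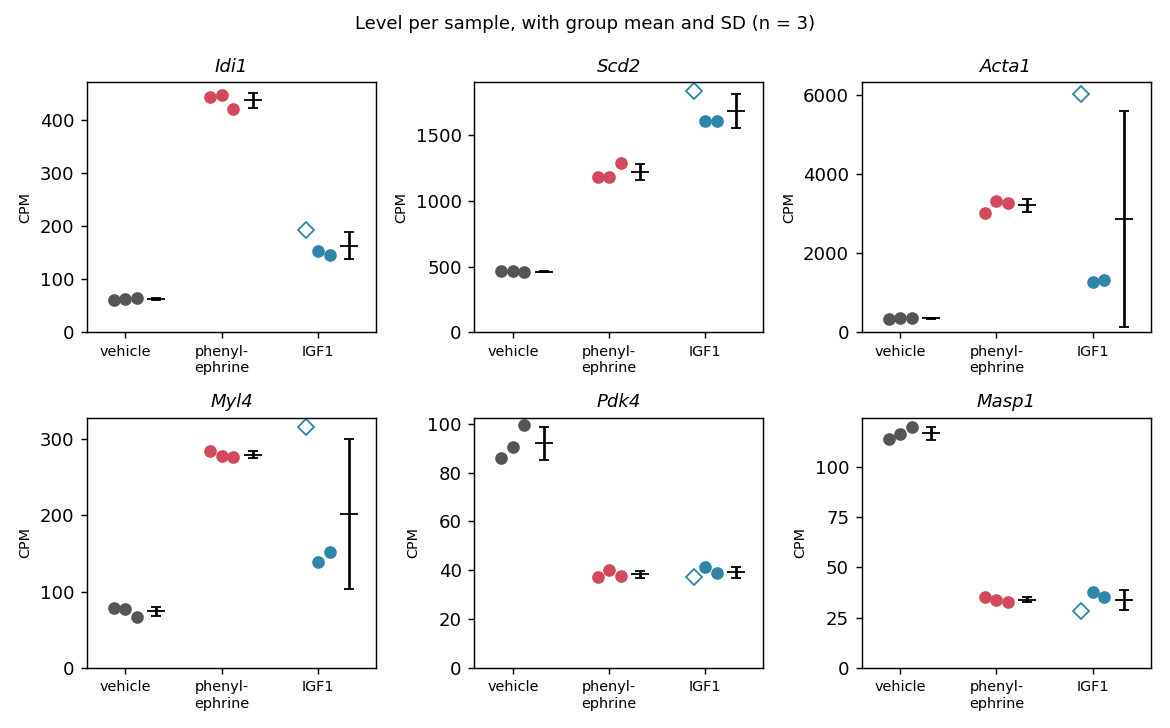
Level in CPM of Idi1, Scd2, Acta1, Myl4, Pdk4 and Masp1 in each sample, with the group mean and SD as bars (n = 3 samples per group; IGF1 replicate 1 as an open diamond). The treated samples of Idi1 and Scd2 form separate groups by stimulus, IGF1 replicate 1 sets the wide SD of Acta1 and Myl4, and the phenylephrine and IGF1 samples of Pdk4 and Masp1 lie close together.

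Genes of glycolysis and glucose uptake were higher in part. Of 25 genes tested, 16 were called higher and 7 lower, and 13 and 2 were common, with a median log2 change of 0.21 (10 and 2 common with scaling by library size only). Eno3, the muscle enolase, stood at 68.4, 72.99 and 77.4 CPM with vehicle, 163, 154 and 153 CPM with phenylephrine and 265, 282 and 286 CPM with IGF1. The 3 groups did not overlap, and the average rise was 2.86-fold (log2 1.51 ± 0.05 SE, adjusted p = 2.04e-11). Slc16a3, the monocarboxylate transporter MCT4 that exports lactate, stood at 28.6, 34.3 and 32.7 CPM, 87.9, 99.5 and 97.5 CPM and 98.3, 68.8 and 74.2 CPM with vehicle, phenylephrine and IGF1, and its treated groups overlapped. The other common rises were Slc2a1, Slc16a1, Pfkl, Pfkp, Tpi1, Gapdh, Pgk1, Pgam1, Eno1, Pkm and Ldha. The 2 common falls were Pfkfb2 and Pfkfb3, which make the activator of phosphofructokinase. Pfkfb3 stood at 10.7, 9.92 and 9.40 CPM with vehicle, 7.11, 7.003 and 7.85 CPM with phenylephrine and 7.24, 7.41 and 7.92 CPM with IGF1. Bdh1, the mitochondrial enzyme of ketone body turnover, was among the largest rises, at 12.1, 13.2 and 10.8 CPM, 27.4, 28.5 and 29.3 CPM and 42.6, 36.2 and 37.1 CPM in the same order.

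Of 14 genes of serine, glycine and folate one-carbon metabolism, 12 were called higher, none lower, and 7 were common. Mthfd2, the mitochondrial folate dehydrogenase, stood at 41.3, 42.03 and 40.8 CPM with vehicle, 178, 190.0 and 179 CPM with phenylephrine and 157, 71.9 and 69.2 CPM with IGF1. Its log2 change with IGF1 was 1.26, or 0.77 without replicate 1. Psph, the last enzyme of serine synthesis, had a more even rise in the IGF1 samples, with 18.96, 18.5 and 17.3 CPM, 36.7, 39.7 and 39.3 CPM and 38.2, 32.1 and 30.1 CPM in the same order. Phgdh and Psat1, the 2 enzymes before it, were also common rises, as were Shmt2, Mthfd1 and Mthfd2l. Nucleotide synthesis had 11 of 18 genes called higher and 2 lower, with 5 common rises (Nme1, Dhodh, Ctps1, Prps1, Adsl) and 1 common fall, Pfas, a purine enzyme at 91.5, 90.7 and 86.2 CPM with vehicle, 60.7, 63.5 and 65.3 CPM with phenylephrine and 42.9, 51.8 and 48.05 CPM with IGF1. With scaling by library size only, the common counts were 4 and 1 for the one-carbon genes and 4 and 4 for the nucleotide genes, so the direction of the latter group depends on the scaling.

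Targets of ATF4, the transcription factor of the amino acid response, and cytosolic tRNA synthetases were mostly higher on the average of both stimuli. Of 24 tested, 19 were called higher and 4 lower, 13 and 1 were common, and the median log2 change was 0.46. That median was 0.76 with phenylephrine and 0.20 with IGF1. The summed level of the list was 3671.4 to 3807.4 CPM with vehicle and 5787.4 to 5908.4 CPM with phenylephrine. With IGF1 it was 4480.1 CPM in replicate 1, and 3634.9 and 3598.5 CPM in replicates 2 and 3, below every vehicle sample. Asns, the asparagine synthetase, stood at 68.5, 64.3 and 62.9 CPM with vehicle, 225, 223 and 221 CPM with phenylephrine and 133, 74.5 and 72.4 CPM with IGF1. IGF1 replicates 2 and 3 lay just above vehicle, and the log2 change with IGF1 was 0.51, or 0.17 without replicate 1. Slc7a1, a transporter of cationic amino acids, had the same order, with 68.8, 70.3 and 62.998 CPM, 181, 200.4 and 191 CPM and 120.3, 75.97 and 72.4 CPM, and its log2 change with IGF1 was 0.41, or 0.14 without replicate 1. Neither Asns nor Slc7a1 passed the edgeR test of IGF1 alone against vehicle (adjusted p = 0.129 and 0.139). The common synthetases were Aars, Cars, Gars, Iars, Lars, Nars, Tars, Wars and Yars. The 1 common fall was Ddit3, which encodes CHOP, at 44.4, 46.04 and 43.1 CPM with vehicle, 32.6, 28.9 and 29.8 CPM with phenylephrine and 33.6, 33.9 and 36.9 CPM with IGF1. Of the 14 common genes, 13 differed between the stimuli. Of these 13, 12 were higher with phenylephrine, and scaling by library size only left 9 common rises and 3 common falls.

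Of the 12 common rises of this group with a promoter entry, 7 held the half-site TGATGNAA on either strand, which ATF4 and its partners read, against 4.16% of all genes in the table. The 7 were Aars, Cars, Iars, Nars, Slc7a1, Tars and Yars. The stretches of 3 of them are given as examples, with the half-site or its complement in capitals. Slc7a1 is chr12:11664433-11664487, plus strand; Tars (Tars1) chr2:62114803-62114854, minus strand; and Iars (Iars1) chr17:15193653-15193701, minus strand.
Slc7a1: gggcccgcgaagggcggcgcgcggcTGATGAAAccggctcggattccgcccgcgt
Tars: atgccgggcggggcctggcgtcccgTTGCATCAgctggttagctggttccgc
Iars: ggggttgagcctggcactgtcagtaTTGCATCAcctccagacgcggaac
The matches begin 30, 27 and 24 bases before the gene start in Slc7a1, Tars and Iars.

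Ribosome biogenesis had 21 of 32 genes called higher and 2 lower, with 11 common rises and 1 common fall. Its median log2 change was 0.43 with phenylephrine and 0.03 with IGF1. The summed level of the list was 2445.5 to 2518.6 CPM with vehicle and 2836.2 to 2922.8 CPM with phenylephrine. With IGF1 it was 2537 CPM in replicate 1, and 2250.2 and 2253.2 CPM in replicates 2 and 3, below every vehicle sample. Bysl, which matures the small subunit, stood at 33.5, 31.4 and 32.3 CPM with vehicle, 67.1, 65.9 and 62.4 CPM with phenylephrine and 57.4, 42.2 and 43.3 CPM with IGF1. The fall was in Npm1, the nucleolar nucleophosmin, at 564, 572 and 597 CPM, 521, 485 and 497 CPM and 468, 430.0 and 439 CPM. Of these 12 genes, 10 differed between the stimuli, and all 10 were higher with phenylephrine. Cytosolic chaperones had 20 of 26 called higher, none lower, and 13 common rises. These included 6 subunits of the chaperonin that folds actin and tubulin (Tcp1, Cct2, Cct3, Cct6a, Cct7, Cct8) and the small heat shock proteins Hspb6, Hspb7 and Hspb8. Hspa4l, a relative of HSP70, stood at 8.15, 8.50 and 8.35 CPM with vehicle, 18.7, 18.9 and 19.9 CPM with phenylephrine and 16.6, 16.6 and 14.4 CPM with IGF1. Hspb6, a small heat shock protein of muscle, stood at 253, 253 and 256 CPM, 693, 714 and 674 CPM and 646, 385 and 401 CPM, with IGF1 replicate 1 near the phenylephrine samples and a log2 change with IGF1 of 0.91, or 0.63 without that replicate. With scaling by library size only, the common rises and falls were 5 and 4 for ribosome biogenesis and 9 and 2 for the chaperones.

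Sarcomere and Z-disc genes had 21 of 26 tested called higher and 1 lower, with 15 common rises, 1 common fall and a median log2 change of 0.40. The common rises were thin-filament genes (Actc1, Tpm1, Tnnt2, Tnnc1), myosin chains (Myh6, Myl2, Myl3, Myl4) and genes of the Z-disc and intermediate filaments (Ldb3, Mypn, Nexn, Synpo2l, Flnc, Des, Smpx). Actc1, the cardiac alpha-actin, stood at 5873, 6199.6 and 5995 CPM with vehicle, 18600.0, 18590.0 and 18191 CPM with phenylephrine and 18326, 8292 and 8631 CPM with IGF1. Myl4, the atrial light chain that neonatal ventricle also makes, stood at 78.5, 76.7 and 66.9 CPM, 285, 277 and 277 CPM and 316, 138 and 152 CPM in the same order. In both genes IGF1 replicate 1 lay at or somewhat above the phenylephrine level, and the other IGF1 samples lay between it and vehicle. The log2 change with IGF1 was 0.96 for Actc1 and 1.45 for Myl4, or 0.49 and 0.97 without replicate 1. Myh6, the alpha-myosin heavy chain, was more even, at 1285, 1389 and 1304 CPM with vehicle, 1643, 1633 and 1622 CPM with phenylephrine and 2082, 2091 and 2086 CPM with IGF1 (log2 0.48 ± 0.04 SE, adjusted p = 1.42e-07). Acta1 and Actc1, and Myh6 and Myh7, share near-identical stretches, so their separate values are uncertain.

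The common fall of the sarcomere group was Myom2, an M-band protein, at 2595, 2726 and 2742 CPM with vehicle, 1892, 1805 and 1834 CPM with phenylephrine and 436, 480.5 and 493 CPM with IGF1. The groups did not overlap, and the IGF1 samples were far lower than those with phenylephrine. The summed level of the smooth muscle and pericyte markers was 3511.8 to 3576.5 CPM with vehicle, 7120.2 to 7366.7 CPM with phenylephrine, and 5520.3, 3695 and 3778 CPM with IGF1. Much of that sum was Des, desmin, which heart muscle also makes and which is 1 of the 15 sarcomere rises, at 1608, 1647 and 1638 CPM with vehicle, 4371, 4416 and 4557 CPM with phenylephrine and 3258, 2023 and 2048 CPM with IGF1. Of the 10 markers tested, 2 were common rises (Des and Cspg4) and 3 common falls (Kcnj8, Myh11, Mylk), with a median log2 change of 0.07. The shares of common rises and falls over all tested genes were 15.3% and 15.6%. None of the 10 was at 0, and their part in the result was not tested.

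Of the 12 fetal and hypertrophy markers tested, 8 were called higher and none lower, but only Acta1, Xirp2, Fhl1 and Nebl were common, and 11 were called higher and 1 lower without IGF1 replicate 1. Nppa, which encodes atrial natriuretic peptide, stood at 724, 739 and 652 CPM with vehicle, 8014, 7792 and 8246 CPM with phenylephrine and 2848, 591 and 630.0 CPM with IGF1. Nppb, which encodes the B-type peptide, stood at 145, 154 and 135 CPM, 1619.5, 1669.8 and 1603 CPM and 1031, 119 and 121 CPM. In both, IGF1 replicate 1 lay well above vehicle and replicates 2 and 3 lay below it, so neither gene was common although the average was called higher for both (adjusted p = 0.0212 and 0.0456). Both calls were lost when any 1 vehicle sample was left out, and the log2 changes with IGF1 were 0.94 and 1.55, or -0.21 and -0.27 without IGF1 replicate 1. The average change of Myh7, the beta-myosin heavy chain, did not pass the test (log2 0.17 ± 0.09 SE, adjusted p = 0.128). Nor did that of Rcan1, the inhibitor of calcineurin that calcineurin itself induces, at 239.9, 255 and 262 CPM with vehicle, 579.7, 575 and 585 CPM with phenylephrine and 628, 231 and 239 CPM with IGF1 (adjusted p = 0.085). Without IGF1 replicate 1 the averages of Myh7 and Rcan1 passed, while their log2 changes with IGF1 were -0.17 and -0.10.

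The CArG box, which serum response factor binds, was present before or just after the start of 6 of 17 common rises of the marker and sarcomere groups with a promoter entry (Acta1, Actc1, Fhl1, Ldb3, Myl3, Nebl; 35.3%), against 1.77% of all genes in the table. Srf, which encodes this factor, and Myocd, its partner myocardin, were themselves common rises. Srf stood at 219, 232 and 219.8 CPM with vehicle, 339.5, 368 and 345 CPM with phenylephrine and 313, 249.8 and 248 CPM with IGF1, with a log2 change with IGF1 of 0.27, or 0.16 without replicate 1. Myocd stood at 52.03, 54.8 and 54.5 CPM, 94.2, 96.8 and 102 CPM and 69.6, 63.2 and 62.2 CPM. The stretches of 4 of the 6 are given as examples, with the box in capitals. Acta1 is chr19:68784254-68784313, minus strand; Fhl1 chrX:139638369-139638428, plus strand; Ldb3 chr16:9924697-9924756, minus strand; and Nebl chr17:85135439-85135498, minus strand.
Acta1: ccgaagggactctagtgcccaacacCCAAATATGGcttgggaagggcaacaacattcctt
Fhl1: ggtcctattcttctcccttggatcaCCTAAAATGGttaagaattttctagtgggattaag
Ldb3: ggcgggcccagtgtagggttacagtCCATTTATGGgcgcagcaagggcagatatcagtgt
Nebl: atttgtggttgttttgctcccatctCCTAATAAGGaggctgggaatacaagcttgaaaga
A CArG box that begins with CCAAT would count under both motifs, and none of these 4 does.

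In the list of oxidative phosphorylation and TCA cycle genes, 22 of 32 were called higher and 4 lower, with 15 common rises and 1 common fall. The rises were small. Cs, the citrate synthase, stood at 459, 489 and 479 CPM with vehicle, 576, 587 and 588 CPM with phenylephrine and 782, 682 and 689 CPM with IGF1. Pdha1, which feeds pyruvate into the cycle, stood at 536, 571 and 583 CPM, 814, 784 and 816 CPM and 888, 863 and 850.0 CPM. Of the 16 common genes, 12 differed between the stimuli and none of them was higher with phenylephrine. Scaling by library size only left 6 common rises and 1 common fall, so most of this shared rise depends on the scaling. The common fall was Nrf1, a transcription factor of mitochondrial genes, at 19.9, 18.9 and 19.1 CPM with vehicle, 14.5, 17.6 and 15.4 CPM with phenylephrine and 16.6, 17.05 and 16.2 CPM with IGF1. The cell cycle had 23 of 32 genes called higher and 1 lower, yet only Cdkn1a, Mcm3, Mcm4 and Mcm5 were common rises, and 1 of these was left with scaling by library size only. The list's median log2 change was -0.30 with phenylephrine and 1.08 with IGF1. Of the cell cycle inhibitors, Cdkn1a (p21) stood at 263, 243 and 232 CPM with vehicle, 361, 360.0 and 344 CPM with phenylephrine and 403, 346 and 353 CPM with IGF1. Cdkn1b (p27) moved the other way, at 121, 122 and 123 CPM, 85.1, 79.97 and 77.6 CPM and 85.1, 87.2 and 88.8 CPM. The difference between the stimuli did not pass the test for either (adjusted p = 0.509 for Cdkn1a and 0.0513 for Cdkn1b). Ccnd1, the cyclin of early cell cycle entry, did not pass the test (log2 0.11 ± 0.07 SE, adjusted p = 0.258).

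**Figure D3:**
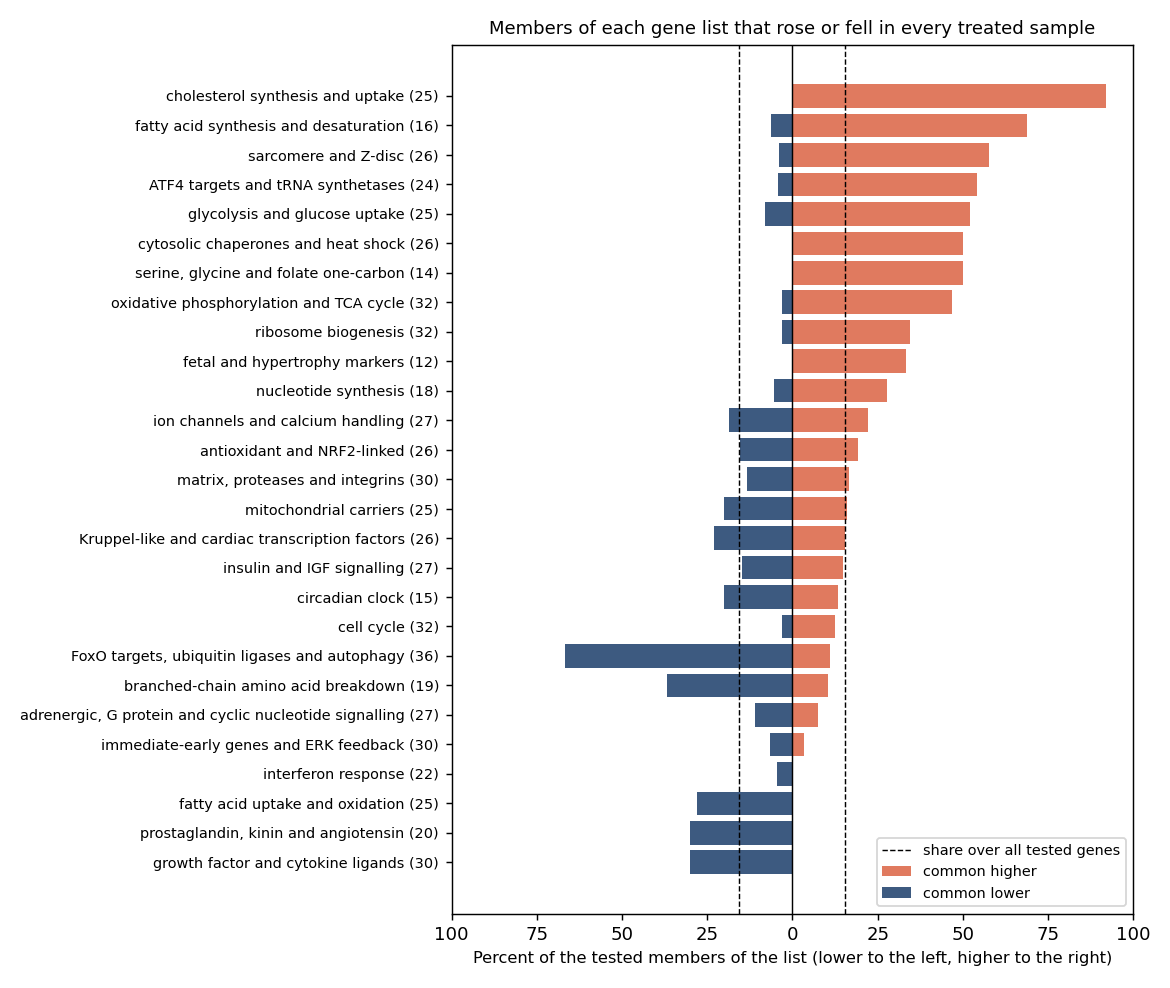
Percent of the tested members of each of 27 gene lists (number tested in brackets) that were common rises (right, orange) or common falls (left, blue). Dashed lines mark the share over all tested genes, 15.3% higher and 15.6% lower. Cholesterol synthesis and uptake stands highest on the right and the list of FoxO targets, ubiquitin ligases and autophagy highest on the left. The lists were chosen with earlier results of these data known.

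Of the 14 largest common falls, 3 differed between the stimuli (among them Ptprr and Cbx7). Gnb3, a G protein beta subunit, led them, at 20.8, 23.02 and 24.1 CPM with vehicle, 3.98, 4.44 and 3.75 CPM with phenylephrine and 6.09, 4.81 and 4.40 CPM with IGF1. It fell 4.996-fold on average (log2 -2.32 ± 0.09 SE, adjusted p = 1.79e-10). Masp1, a serine protease of the lectin pathway of complement, stood at 114, 116 and 119.8 CPM with vehicle, 35.4, 33.5 and 32.7 CPM with phenylephrine and 28.3, 37.5 and 35.3 CPM with IGF1. All treated samples lay together well below vehicle, and the log2 change was -1.78 with phenylephrine and -1.78 with IGF1. The difference between the stimuli was 0.00 ± 0.08 (log2, SE; adjusted p = 0.993).

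Other large falls were in Lrtm2, a leucine-rich repeat membrane protein, Rasd2, a small GTPase, Ptprr, a tyrosine phosphatase that acts on MAP kinases, Dpyd, which breaks down pyrimidines, Pbld1, Cpne5 and Fam227b. Hamp, which encodes the iron hormone hepcidin, stood at 7.76, 8.01 and 5.78 CPM with vehicle, 1.79, 1.69 and 1.78 CPM with phenylephrine and 0.955, 1.22 and 1.61 CPM with IGF1. Arrdc3, an arrestin-domain protein that acts on adrenergic receptors, stood at 46.96, 48.4 and 44.5 CPM with vehicle, 14.7, 16.6 and 15.7 CPM with phenylephrine and 15.1, 17.03 and 18.7 CPM with IGF1. Cbx7, a subunit of Polycomb repressive complexes, stood at 10.2, 9.68 and 8.80 CPM, 3.33, 3.90 and 3.49 CPM and 2.34, 2.46 and 2.54 CPM. Cxcl10, a chemokine induced by interferon, was the 1 common fall among 22 interferon-response genes, of which 1 was called higher and 2 lower. Without IGF1 replicate 1, 13 of the 14 largest falls were the same genes, with Tmem140 in place of Arrdc3.

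The highest share of common falls among the 27 lists was that of FoxO targets, ubiquitin ligases and autophagy genes. This rank too is a description, as the lists were chosen with earlier results known. Of 36 tested, 28 were called lower and 5 higher, 24 and 4 were common, and the median log2 change was -0.46. The 3 FoxO genes of the list (Foxo1, Foxo3, Foxo4) were among the falls. Foxo1 stood at 21.5, 23.2 and 22.4 CPM with vehicle, 11.99, 9.98 and 10.7 CPM with phenylephrine and 10.7, 14.001 and 14.02 CPM with IGF1, and fell 1.88-fold on average (log2 -0.91 ± 0.08 SE, adjusted p = 5.03e-07). Of the ubiquitin ligases of muscle breakdown, Fbxo32 (atrogin-1) stood at 73.9, 82.9 and 71.9 CPM, 31.1, 32.8 and 30.6 CPM and 30.9, 41.3 and 40.05 CPM. Trim63 (MuRF1) stood at 194, 209 and 212 CPM with vehicle, 134, 139.6 and 126 CPM with phenylephrine and 167, 188 and 188 CPM with IGF1. The fall of Trim63 was thus small with IGF1, where its samples came close to vehicle without overlap. Asb14 and Asb18, receptors of ubiquitin ligase complexes, fell most in the list. Asb14 stood at 30.3, 29.5 and 31.2 CPM with vehicle, 5.19, 3.87 and 4.62 CPM with phenylephrine and 11.9, 16.9 and 17.1 CPM with IGF1.

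Among the other falls of this list, Txnip, which restrains glucose uptake and thioredoxin, stood at 1461, 1512 and 1562 CPM with vehicle, 773, 793 and 755 CPM with phenylephrine and 530.4, 569.6 and 587 CPM with IGF1. Pik3ip1, an inhibitor of PI3K, stood at 170.4, 172 and 172 CPM, 50.6, 46.7 and 52.1 CPM and 72.8, 95.7 and 102 CPM. Txnip was lowest with IGF1 and Pik3ip1 lowest with phenylephrine. The autophagy and mitophagy genes that fell were Ulk1, Ulk2, Atg14, Map1lc3a, Map1lc3b, Sqstm1, Bnip3, Bnip3l and Pink1, and the others were Fbxo21, Klhl38, Sesn1, Ccng2, Cdkn1b and Klf15. The 4 common rises were Becn1, Asb2, Ddit4, an inhibitor of mTOR, and Tp53inp2, which acts in autophagosome formation. Tp53inp2 stood at 525, 550.1 and 545 CPM with vehicle, 744, 745 and 784 CPM with phenylephrine and 942, 929.8 and 927 CPM with IGF1. Ddit4 stood at 26.5, 26.4 and 22.2 CPM, 27.5, 28.9 and 27.01 CPM and 39.99, 38.6 and 41.3 CPM, hardly above vehicle with phenylephrine. It did not pass the edgeR test of phenylephrine alone against vehicle (adjusted p = 0.0782). Scaling by library size only left 2 common rises and gave 26 common falls in the list.

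The letters GTAAACA, the core that FoxO factors bind, were found on either strand in 2 of the 18 common falls of this list with a promoter entry, Pik3ip1 and Trim63, against 4.13% of all genes in the table. Trim63 is shown as the muscle ligase of the pair, at chr5:151817006-151817062, plus strand, with the complement of the motif in capitals.
Trim63: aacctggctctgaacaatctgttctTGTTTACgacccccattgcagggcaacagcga
The match begins 205 bases before the gene start, and the window read says nothing of sites elsewhere.

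Genes of fatty acid uptake and oxidation had 17 of 25 tested called lower and 2 higher, with 7 common falls and no common rise. The median log2 change was -0.22 on average, -0.47 with phenylephrine and 0.08 with IGF1. The 7 were Cd36 and Slc27a1, which take up fatty acids, Cpt1a and Cpt1b, which pass them into mitochondria, Decr1, an auxiliary enzyme of oxidation, Mlycd, which degrades malonyl-CoA, and Pdk4, which inhibits pyruvate dehydrogenase. Pdk4 stood at 85.9, 90.5 and 99.3 CPM with vehicle, 37.4, 39.97 and 37.7 CPM with phenylephrine and 37.2, 41.3 and 38.7 CPM with IGF1. It fell 2.37-fold on average (log2 -1.25 ± 0.05 SE, adjusted p = 1.49e-10), and the 6 treated samples formed one group. Slc27a1 stood at 128, 129.6 and 132 CPM, 45.7, 45.1 and 45.9 CPM and 54.7, 63.2 and 62.3 CPM, with phenylephrine lowest. The enzymes of the main oxidation spiral were not common: Hadha stood at 549.5, 539.9 and 541 CPM with phenylephrine, below 677, 699 and 713 CPM with vehicle, and at 806, 777 and 784 CPM with IGF1, above it.

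Breakdown of branched-chain amino acids had 11 of 19 genes called lower and 3 higher, with 7 common falls and 2 common rises. The list as a whole was lower with phenylephrine only, with a median log2 change of -0.35, against 0.02 with IGF1. Its summed level was 2399.8 to 2532.7 CPM with vehicle, 2014.1 to 2063.2 CPM with phenylephrine and 2603.1 to 2640.8 CPM with IGF1. Bckdha, a subunit of the rate-limiting dehydrogenase, stood at 137, 148 and 145 CPM with vehicle, 75.4, 76.2 and 75.9 CPM with phenylephrine and 81.3, 81.2 and 81.3 CPM with IGF1. It fell 1.82-fold (log2 -0.87 ± 0.03 SE, adjusted p = 1.61e-10) with little spread among the 6 treated samples. Klf15, a transcription factor that drives this pathway and belongs to both lists, stood at 67.9, 70.6 and 65.3 CPM, 38.9, 35.7 and 33.6 CPM and 36.996, 43.2 and 42.7 CPM. The other falls were Ppm1k, Bckdk, Acadsb, Hibch and Hibadh. The 2 rises were Dld, a subunit shared with pyruvate dehydrogenase, and Pcca, which carboxylates propionyl-CoA. Pcca stood at 53.2, 54.6 and 50.9 CPM with vehicle, 61.3, 64.05 and 67.2 CPM with phenylephrine and 99.6, 81.8 and 81.7 CPM with IGF1. Neither rise was common with scaling by library size only. Among the mitochondrial carriers, 4 of 25 were common rises and 5 common falls, near the shares over all tested genes (15.3% and 15.6%). The falls were led by Slc25a34, at 33.5, 32.9 and 34.6 CPM with vehicle, 6.83, 4.86 and 6.27 CPM with phenylephrine and 15.2, 18.4 and 18.5 CPM with IGF1. Slc25a42, which carries coenzyme A, stood at 80.6, 78.6 and 79.2 CPM, 33.7, 32.5 and 32.9 CPM and 44.4, 58.3 and 57.2 CPM.

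Of 30 genes for secreted growth factors and cytokines, 12 were called lower and 4 higher, and 9 were common falls with no common rise. The 9 were Tgfa, Nrg1, Vegfa, Vegfc, Tgfb1, Bmp4, Inhbb, Ctf1 and Angpt1. Tgfa, a ligand of the epidermal growth factor receptor, stood at 22.7, 24.1 and 23.7 CPM with vehicle, 18.2, 18.8 and 17.4 CPM with phenylephrine and 7.67, 8.02 and 8.86 CPM with IGF1. Ctf1, cardiotrophin 1, stood at 5.13, 4.76 and 4.77 CPM, 2.20, 2.65 and 3.10 CPM and 1.45, 2.71 and 2.24 CPM. Of the 9, 6 differed between the stimuli, and all 6 fell further with IGF1. Of 20 genes of prostaglandin, kinin and angiotensin signalling, 7 were called lower and 2 higher, with 6 common falls (Ptges, Ptgds, Agtr1a, Ednra, Ptgfr, Ece1). Ptgds, a prostaglandin D synthase, stood at 51.6, 47.5 and 47.8 CPM with vehicle, 31.4, 31.3 and 27.4 CPM with phenylephrine and 21.1, 24.004 and 25.7 CPM with IGF1. Ptges lay at 1.07, 0.586 and 0.562 CPM with vehicle, and its call was lost in 5 of the 6 fits that each left out 1 vehicle or phenylephrine sample (adjusted p up to 0.273).

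Signalling genes of the stimuli themselves were divided. In the adrenergic, G protein and cyclic nucleotide list, 5 of 27 genes were called higher and 9 lower, with 2 common rises and 3 common falls. Prkca, the main protein kinase C of heart muscle, rose, at 35.8, 41.6 and 37.99 CPM with vehicle, 54.3, 63.03 and 60.7 CPM with phenylephrine and 59.1, 50.7 and 52.2 CPM with IGF1. Adcy5, a cardiac adenylyl cyclase, fell, at 423, 442 and 417 CPM, 199.6, 209 and 206 CPM and 302, 367 and 372 CPM. Adra1a, an alpha1-adrenergic receptor, was called higher on average but not common, at 13.7, 14.001 and 13.2 CPM with vehicle, 19.2, 23.3 and 21.6 CPM with phenylephrine and 11.3, 15.2 and 16.4 CPM with IGF1, where replicate 1 lay below vehicle (log2 change with IGF1 0.08, or 0.21 without it). In the insulin and IGF list, 8 of 27 genes were called higher and 7 lower, with 4 common in each direction. These common counts lie near or below the shares over all tested genes (15.3% higher and 15.6% lower). The called shares over all tested genes were 27.0% higher and 26.0% lower, and no shift of either list is read from the counts. Pik3r3, a regulatory subunit of PI3K, rose, at 9.38, 8.09 and 9.67 CPM with vehicle, 14.2, 15.2 and 14.7 CPM with phenylephrine and 21.9, 20.98 and 21.2 CPM with IGF1. Grb10, an adaptor that inhibits the insulin and IGF1 receptors, also rose (log2 0.47 ± 0.03 SE), with Rps6kb1 and Phlda3.

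Irs1, the docking protein of these receptors, fell, at 47.04, 50.4 and 44.2 CPM with vehicle, 36.4, 36.6 and 35.7 CPM with phenylephrine and 24.5, 29.4 and 30.1 CPM with IGF1, as did Igfbp2, Igf2 and Igf2r. Igf1r lay on opposite sides of vehicle with the 2 stimuli, at 66.3, 75.4 and 66.9 CPM with vehicle, 93.97, 105 and 101.1 CPM with phenylephrine and 57.04, 40.8 and 39.9 CPM with IGF1, and its average was not called (adjusted p = 0.795). Without IGF1 replicate 1 the average was called lower (log2 -0.13, adjusted p = 0.00796). Of 30 immediate-early and ERK feedback genes, 8 were called higher and 8 lower, and 3 were common. The shares over all tested genes were 27.0% called higher, 26.0% called lower and 30.8% common. The called counts of the list lie near those shares and the common count lies below. Dusp8, a phosphatase of stress-activated MAP kinases, rose, at 12.2, 13.7 and 13.5 CPM with vehicle, 65.7, 71.1 and 65.95 CPM with phenylephrine and 43.2, 16.2 and 15.97 CPM with IGF1. Its log2 change with IGF1 was 0.90, or 0.30 without replicate 1, and it did not pass the edgeR test of IGF1 alone (adjusted p = 0.121). Fosl2, an AP-1 subunit, and Spred1, an inhibitor of RAS signalling, fell. With scaling by library size only, the common rises and falls were 2 and 7 for the adrenergic list, 3 and 8 for the insulin and IGF list, and 1 and 5 for the immediate-early list.

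Among ion channels and calcium handling genes, 9 of 27 were called higher and 12 lower, with 6 common rises and 5 common falls. The common shares over all tested genes were 15.3% and 15.6%, and the list's median log2 change was -0.40 with phenylephrine and 0.14 with IGF1. Atp2a2, the calcium pump SERCA2 of the sarcoplasmic reticulum, fell, at 6436, 6648 and 6379 CPM with vehicle, 4278, 4159.9 and 4288 CPM with phenylephrine and 5836, 5912 and 6036 CPM with IGF1. Pln, its inhibitor phospholamban, fell as well, at 3787, 3813 and 3891 CPM, 3011, 2865 and 2861 CPM and 2909, 3195 and 3280.3 CPM. Casq1, Casq2, Jph2, Cacna1g and Atp1b1 were among the common rises. Atp1b1, a subunit of the sodium pump, stood at 473, 464 and 459 CPM with vehicle, 879, 866 and 889 CPM with phenylephrine and 818, 653 and 665 CPM with IGF1. Kcnd3, a channel of the transient outward potassium current, stood at 44.8, 46.8 and 46.6 CPM, 23.5, 24.5 and 26.3 CPM and 22.1, 27.5 and 27.9 CPM. Its partner subunit Kcnip2 fell too, from 0.788, 0.733 and 0.562 CPM in the vehicle samples to 0, 0.064 and 0.0323 CPM with phenylephrine and 0, 0.0226 and 0.0838 CPM with IGF1, levels of at most a few reads for which no fold is given. Kcnj11, a subunit of the ATP-sensitive potassium channel, was the other common fall.

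Of 26 Kruppel-like and cardiac transcription factor genes, 7 were called higher and 9 lower, with 4 common rises (Myocd, Srf, Mef2a, Nkx2-5) and 6 common falls (Klf10, Klf11, Gata6, Tbx5, Hand1, Mef2d). Scaling by library size only gave 2 and 9. Klf11 stood at 78.9, 80.4 and 84.8 CPM with vehicle, 49.9, 44.6 and 49.5 CPM with phenylephrine and 45.8, 46.1 and 48.3 CPM with IGF1, with overlapping treated groups. Of 15 circadian clock genes, 7 were called higher and 5 lower. Nfil3 and Per2 were common rises and Dbp, Nr1d2 and Cry1 common falls. Nfil3, a repressor of the clock's output genes, had log2 changes of 0.44 with phenylephrine and 0.44 with IGF1. Nr1d2, which encodes REV-ERB beta, stood at 146, 141 and 146 CPM with vehicle, 103, 102 and 98.3 CPM with phenylephrine and 93.5, 111 and 108 CPM with IGF1. Antioxidant genes gave 5 common rises, among them Txn1 and Prdx3, and 4 common falls, among them Mgst1, Gsta4 and Cat, of 26 tested, and 2 and 8 with scaling by library size only. Matrix and integrin genes gave 5 common rises and 4 common falls of 30. Over all tested genes 15.3% were common rises and 15.6% common falls. Most counts in this paragraph lie near those shares, and no shift of these lists is read from them. Fn1, fibronectin, fell, at 4753, 4702 and 4357 CPM with vehicle, 3523, 3532 and 3613 CPM with phenylephrine and 2609, 3024 and 3114 CPM with IGF1. Itgb1bp2, the muscle integrin partner melusin, rose, at 87.6, 89.1 and 98.1 CPM, 202, 212 and 214 CPM and 247, 142 and 144 CPM, with a log2 change with IGF1 of 0.95, or 0.64 without replicate 1.

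The labelled cell type was checked against its markers. Over all tested genes, 27.0% were called higher and 26.0% lower on average, and 15.3% were common rises and 15.6% common falls. The fibroblast and macrophage counts lie near or under those shares. The marker lists are short, and no shift of a cell type is read from their counts. All 9 cardiomyocyte markers tested were present in every sample, with a summed level of 43055 to 56007 CPM, and Tnnt2, cardiac troponin T, stood at 7119, 7674 and 8059 CPM with vehicle, 9400.0, 8971 and 9316 CPM with phenylephrine and 11945, 10281 and 10746 CPM with IGF1. Of the 9, 3 were common rises (Tnnt2, Myh6, Nkx2-5) and Pln was a common fall. Of 9 endothelial markers tested, 4 were called lower, 1 was called higher and 4 were not called. The common falls were 3 (Kdr, Tek, Pecam1), with no common rise, and none of the 9 was at 0. Their summed level was 80 to 88.6 CPM with vehicle, 67.6 to 79.8 CPM with phenylephrine and 37.7 to 43.6 CPM with IGF1. A large part of the vehicle sum was Kdr, the receptor VEGFR2, at 44.4, 49.1 and 40.5 CPM, 25.3, 26.2 and 33.99 CPM and 11.2, 14.4 and 13.6 CPM in that order. In bulk RNA, fewer cells of a type and less RNA per cell cannot be told apart, and the part of these cells in the falls was not tested. Of 10 fibroblast markers, 2 were called higher and 1 lower, and the 1 common gene was Pdgfra, a fall. Their summed level was 5051 to 6039 CPM with vehicle, 4689.8 to 4783 CPM with phenylephrine and 5940.2 to 6859.6 CPM with IGF1. Of 7 epicardial markers, 2 were called higher and 2 lower, and the 2 lower ones (Aldh1a2, Tbx18) were common falls. Of 5 Schwann cell markers, 1 was called, a common fall, and 4 were not. None of 7 macrophage markers tested was common, and Lyz2, the one with the smallest adjusted p, was called lower (log2 -0.29 ± 0.08 SE). The 1 erythroid marker tested, Slc4a1, was not called.

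The size of the shared response was then compared between the stimuli. Over all tested genes, 6437 (54.2%) differed between phenylephrine and IGF1 by an adjusted p under 0.05, and among the common genes 1736 did (47.4%). The choice of the common genes bears on the second share, and nothing is read from its distance to the first. Of the common rises, 618 were larger with phenylephrine and 341 larger with IGF1. Of the common falls, 474 went further with phenylephrine and 303 further with IGF1. Without IGF1 replicate 1, the common genes numbered 3897, and 2204 of them differed.

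Wfdc1, a secreted protein with a whey acidic protein domain, showed the largest difference among the named common rises that were higher with phenylephrine. It stood at 3.60, 3.76 and 3.16 CPM with vehicle, 21.5, 23.6 and 22.1 CPM with phenylephrine and 5.17, 5.15 and 5.53 CPM with IGF1, a difference of 2.08 ± 0.09 (log2, SE; adjusted p = 1.40e-10). The IGF1 samples lay together and only slightly above vehicle. Murc, a muscle protein of caveolae, stood at 9.60, 9.63 and 9.85 CPM, 69.6, 80.04 and 81.7 CPM and 38.3, 15.9 and 13.9 CPM, with a difference of 1.80 ± 0.38 and a log2 change with IGF1 of 1.19, or 0.62 without replicate 1. The differences of Slc7a3, an amino acid transporter, and Serinc2 lay between those of Wfdc1 and Murc, at 1.89 ± 0.27 and 1.81 ± 0.32. Their log2 changes with IGF1 were 0.66 and 0.67, or 0.26 and 0.22 without replicate 1. Slc7a3, Serinc2 and Murc did not pass the edgeR test of IGF1 alone against vehicle (adjusted p = 0.105, 0.135 and 0.0520). Among the rises that were higher with IGF1, Dbi, which binds acyl-CoA, stood at 190.4, 196 and 212 CPM with vehicle, 239, 233 and 233 CPM with phenylephrine and 493, 434 and 439 CPM with IGF1, a difference of -0.95 ± 0.05 (log2, SE; adjusted p = 1.51e-09). Ckb, the brain-type creatine kinase, stood at 106, 103 and 100.8 CPM, 112, 112 and 119 CPM and 239, 190.2 and 199 CPM. Phenylephrine samples of both genes lay just above vehicle, and IGF1 samples well above. Plb1, a phospholipase, and Ccdc69 were the others. The edgeR test of phenylephrine alone against vehicle was not passed by Ckb and Ccdc69 (adjusted p = 0.0826 and 0.159).

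Among the common falls, Myom2, described above, differed most toward a deeper fall with IGF1 (1.97 ± 0.05 log2, SE; adjusted p = 1.20e-12). Pla2g7, which degrades platelet-activating factor, stood at 136, 129.6 and 128 CPM with vehicle, 96.8, 93.9 and 86.05 CPM with phenylephrine and 27.2, 31.7 and 32.1 CPM with IGF1. Dpysl5 and Tgfa had the same order. Falls that were deeper with phenylephrine included Asb14, Asb18, Slc7a4, which is related to amino acid transporters, and Plin5, a protein of lipid droplets, at 18.6, 19.4 and 16.9 CPM with vehicle, 4.46, 3.71 and 3.68 CPM with phenylephrine and 10.7, 15.1 and 14.2 CPM with IGF1. Its difference between the stimuli was -1.76 ± 0.13 (log2, SE; adjusted p = 4.82e-08). In each of these genes the 3 groups did not overlap.

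**Figure D4:**
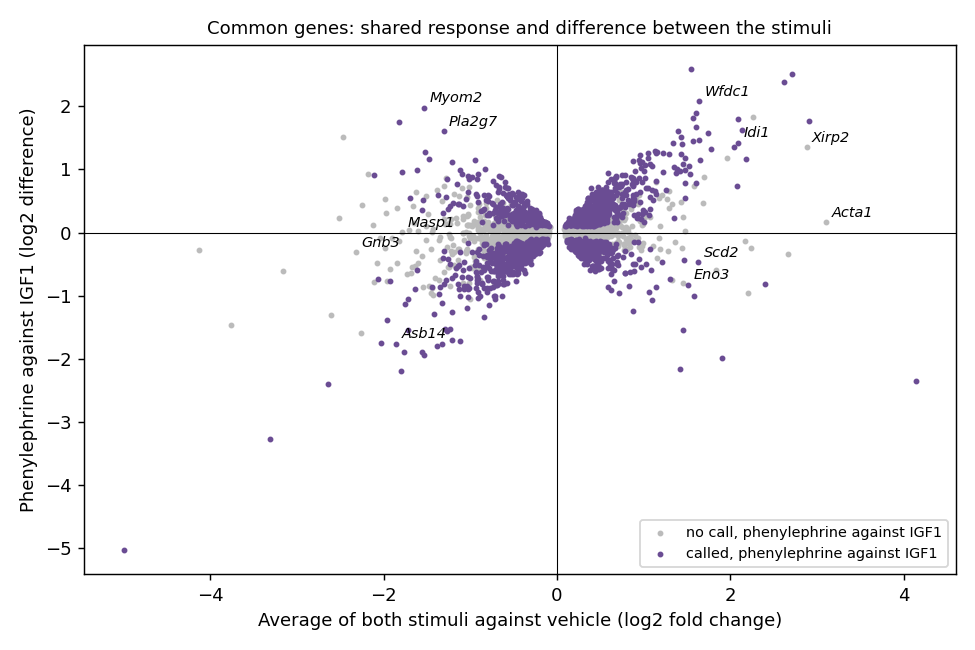
Each point is 1 of the 3662 common genes, with the average log2 fold change of both stimuli against vehicle on the horizontal axis and the log2 difference of phenylephrine from IGF1 on the vertical axis; purple points (1736) passed an adjusted p of 0.05 for that difference and grey points did not. Masp1 and Gnb3 lie near 0 on the vertical axis, Idi1 above it, and Myom2 and Asb14 far from it in opposite directions.

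At the edge of the choice, the nearest treated and vehicle samples almost touched. ST7 was just inside among the rises, with 18.2, 19.4 and 20.5 CPM in the vehicle samples and 28.1, 24.6 and 23.6 CPM and 24.2, 21.3 and 20.5 CPM in the treated groups, and Mrs2, a magnesium channel of mitochondria, was just outside, with 26.2, 29.3 and 27.5 CPM, 29.3, 29.96 and 29.9 CPM and 38.4, 33.9 and 36.7 CPM. Ndor1 was just inside among the falls, with 24.1, 21.9 and 22.2 CPM, 19.99, 21.5 and 21.9 CPM and 15.8, 15.7 and 17.4 CPM. Dnajc8 was just outside, with 92.5, 91.2 and 91.05 CPM, 91.05, 84.6 and 87.9 CPM and 88.1, 79.5 and 79.2 CPM. Without the test, 3826 rows of the table had all treated samples on one side of vehicle, 77 of them among rows too low to be tested and 87 among tested genes that were not called. A further 1395 rises and 1239 falls were called on average without all treated samples lying on one side of all vehicle samples, among them Nppa and Nppb.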

How the data were processed

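The values deposited by the authors are unnormalized counts of reads for each gene in the 9 samples. The tools STAR, HTSeq and DESeq and the rat genome build rn5 are named per the submitters' processing notes. Their roles, versions and the use of strand are not given in the sources used here, so overlapping and antisense genes cannot be told apart. Genes are named by symbol only, and 26 rows with calendar dates for names (11 of them common genes) are not named here. The filterByExpr function (minimum count 10, minimum total count 15) kept 11873 genes with 99.99% of the counts. Counts were scaled by TMM, a trimmed mean of log ratios between libraries (factors 0.931 to 1.08) and fitted with the robust quasi-likelihood model of edgeR 4.0.16 (R 4.3.3) over all 9 samples. The contrasts were the mean of both stimuli minus vehicle, each stimulus minus vehicle, and phenylephrine minus IGF1. Each had an F test with Benjamini-Hochberg adjustment over all tested genes. Each SE is the log2 change over the root of F, and reflects the spread over all samples.

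Named genes were the 14 largest common rises and falls by the smaller of their 2 changes (at least 5 CPM), 2 at each end of every list, the 4 in each direction that differed most between the stimuli, 12 fixed genes and those at the edge of the choice. Fdft1, Fasn, Cs, Foxo1, Fbxo32, Trim63, Txnip, Pik3ip1 and Hadha, and the promoters shown, were chosen after their values were seen. Genes given without a level belong to the set that a list's count refers to. Some genes that these rules name are counted but not reported here by name. The common genes and the lists were chosen with earlier results of these data known. Promoters are from RefSeq (GRCr8), where 3000 of the 3662 common genes matched by symbol, and each motif was searched on both strands. The motif shares for all genes are over the 27457 genes in that table, not over the 11873 tested. The alternatives were DESeq2 1.42.0, limma-voom (limma 3.58.1), DESeq2 size factors, scaling by library size only, other filters, a stricter threshold or gap, the treated samples as 1 group, a replicate block and leaving out each sample.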

Additional observations from a re-analysis of the deposited data

How the results depend on the processing

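Scaling by library size only gave 1724 rises and 4969 falls on average, of which 903 and 3113 were common. Taking the 6 treated samples as 1 group, so that differences between the stimuli count as spread, gave 1366 rises and 1343 falls. A gap of at least 1.2-fold between the nearest treated and vehicle samples left 376 common rises and 515 common falls, and a change of at least 1.5-fold with each stimulus left 194 and 328. Under DESeq2, DESeq2 size factors, limma-voom, no filter, a stricter filter, a threshold of 0.01 and each fit without 1 sample, all 5 counts stayed within 1.5 times the reported ones. Leaving out 1 sample gave 2525 to 3552 rises, 2692 to 3401 falls, 1712 to 1924 common rises, 1878 to 2064 common falls, and 1530.0 to 2204 common genes that differed between the stimuli. Of the 145 named genes, 34 lost their call with the treated samples as 1 group and 3 with scaling by library size only (Adra1a, ST7, Mrs2). Rcan1 gained one with DESeq2 (adjusted p = 0.0326). The cause was not tested.

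With the replicate number as a block, 3136 rises, 3031 falls, 1795 common rises, 1828 common falls and 1690.0 common genes that differed between the stimuli were called, and 8 named genes lost their call. Same-numbered samples of different groups did not deviate together (correlations of -0.23 to 0.079 over 9301 genes), so the numbers were not taken as pairs.

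Genes near or under 1 CPM (29.1 to 51.6 reads), such as Kcnip2 and Ptges, rest on fewer reads than most named genes. With 3 samples a group, the mean of each group is imprecise.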
